A study of Rattus norvegicus with 2 samples.

Results

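The genes described here fold, modify and dispose of secretory proteins in the endoplasmic reticulum (ER) and run its stress signalling, the unfolded protein response. They form a list of 45 symbols, chosen with earlier results of these data known. A symbol was measured where a probe set of the array was annotated with that symbol and no other. This held for 44 of the 45, among 22093 genes measured in all. Manf, a secreted ER stress protein, shared its probe set with other symbols and was not analysed here. Where a gene had several such probe sets, the one with the highest mean signal was used.

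The RNA came from newborn rat epidermal keratinocytes (called NRK cells in the labels), which form the outer layer of the skin. All cells grew in DMEM with fetal bovine serum, hydrocortisone and antibiotics, with the medium renewed daily, and RNA was taken at day 5. The RA array holds cells given 5 µM all-trans retinoic acid (RA), a hormone-like product of vitamin A that acts through nuclear receptors, dissolved in dimethyl sulfoxide. The other array, whose title names no treatment, was treated as the vehicle control, since the design names no other treatment. There was 1 array per group, so no value has a replicate or an error, no test was possible, and the labels leave unsaid whether an array holds 1 culture or a pool.

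Proteins bound for the cell surface or for secretion enter the ER through the Sec61 channel, are glycosylated and cut, and fold with the help of BiP (Hspa5), the calnexin and calreticulin lectins and the protein disulfide isomerases. When unfolded protein builds up, the membrane sensors ATF6, IRE1 (Ern1) and PERK (Eif2ak3) signal to the nucleus. Cleaved ATF6 and spliced XBP1 act on genes of chaperones and of ER-associated degradation, while PERK slows translation and raises the translation of ATF4. In keratinocytes, the unfolded protein response has been linked to terminal differentiation.

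Levels are given as the deposited log2 signals. A difference is the level with RA minus the level without it, in log2 units, so that 1 unit is 2-fold on the deposited scale. A gene counted as above the floor where its higher value was at least 3.81, the middle value of the whole table, as for 14274 genes and 42 of the 44 members. Derl3 (3.31 without RA, 3.28 with RA), a derlin of ER-associated degradation, and Creb3l1 (3.18 and 3.45), a membrane-bound transcription factor, were under the floor on both arrays. The table's values reach 19.93, beyond the log2 ceiling of 16 of a scanner image, and Ero1a with RA was the only member value above 16. Control probe sets gave a measure of scatter. The central 95% of differences ran from -0.43 to 0.255 for 92 spike sequences, most of them dim, and from -1.72 to 2.14 for 399 rat positive controls, of which 12.5% were higher by 2-fold or more and 15.3% lower. For 1153 rat negative controls it ran from -2.17 to 2.01.

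As a group, the ER genes were higher on the RA array. With RA, 8 of the 42 members above the floor (19.0%) were higher by 2-fold or more, against 7.88% of all genes above the floor. None (0 of 42) was at least 2-fold lower, against 5.63% of all genes. The list was not chosen blind to these data. These shares were also not matched for signal, and the members were brighter. The mean signal without RA was 8.53 over the 44 measured members and 5.65 over all 22093 measured genes. The 8 were the oxidase gene Ero1a, the transcription factor genes Creb3l2 and Creb3, the chaperone genes Hspa5 and Hsp90b1, the disulfide isomerase genes Pdia4 and Pdia3, and the stress-induced regulator gene Trib3. The median difference of the members was 0.41, and that of all genes was -0.026. Of the 42, 32 (76.2%) had a difference over 0, against 46.4% of all genes. At 1.5-fold the counts were 14 higher (33.3%, against 13.9% of all genes) and 1 lower (2.38%, against 12.3%). At 4-fold, 2 were higher (4.76%, against 3.05%). Of the 8, Ero1a and Creb3l2 lay above the central 95% of the positive and of the negative controls, and the other 6 lay inside both ranges.

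Most members differed by less than 1 unit. Without Ero1a the differences ran from -0.73 to 2.31, with a median of 0.39. Pdia6, Chac1 and Calr lay just under the 2-fold line, at 0.98, 0.98 and 0.90. Pdia6 and Chac1 crossed it when the arrays were centred on their medians. Lowess over all probe sets was used to remove the trend of difference with signal. After it, or after a further quantile normalization, Pdia6, Chac1, Calr and Canx all crossed the line. Then 12 members were past 2-fold upward and 0 downward. All 8 reported above were among the 12. The split of all genes changed as well, to 10.2% higher and 4.50% lower after this lowess and to 8.38% and 5.46% after quantile normalization. The sign was the same under 5 scalings, the deposited one included, for 38 of the 42 members. The signs of Creld2, Sdf2l1, Ostc and Spcs2, with deposited differences between -0.22 and 0.01, changed with the scaling.

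**Figure D1:**
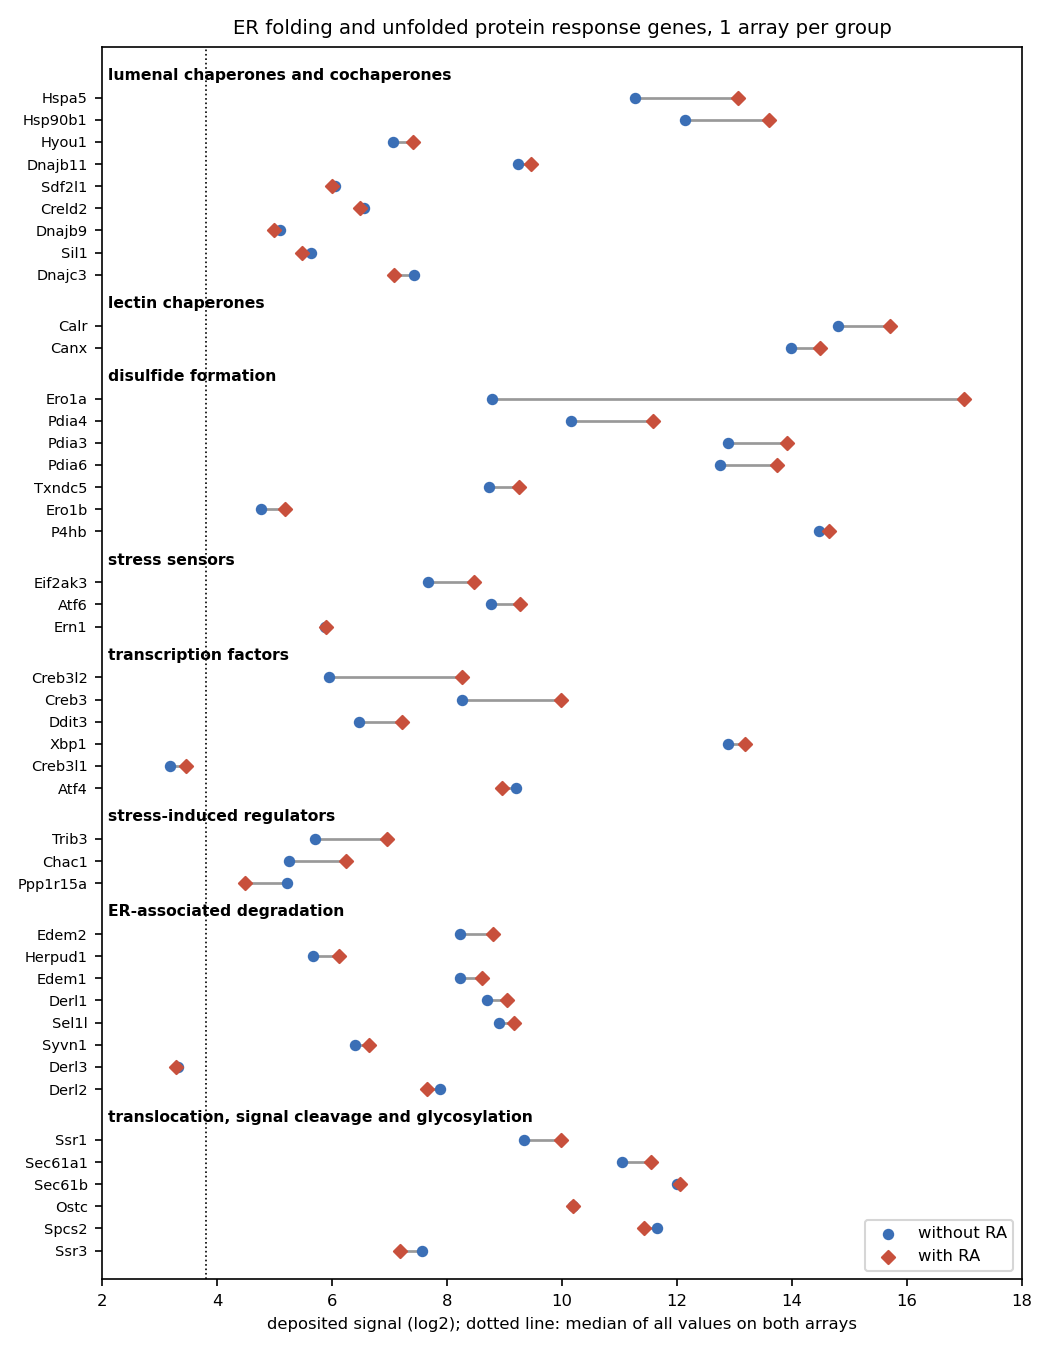
Deposited log2 signal (horizontal axis) of the 44 measured members, grouped by role, on the array without RA (circles) and the RA array (diamonds), with 1 array per group and no error bars. The line of Ero1a runs from 8.79 to 17.00, and the next longest, that of Creb3l2, spans 2.31 units. Levels of different genes come from different probes and cannot be ranked against each other.

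**Figure D2:**
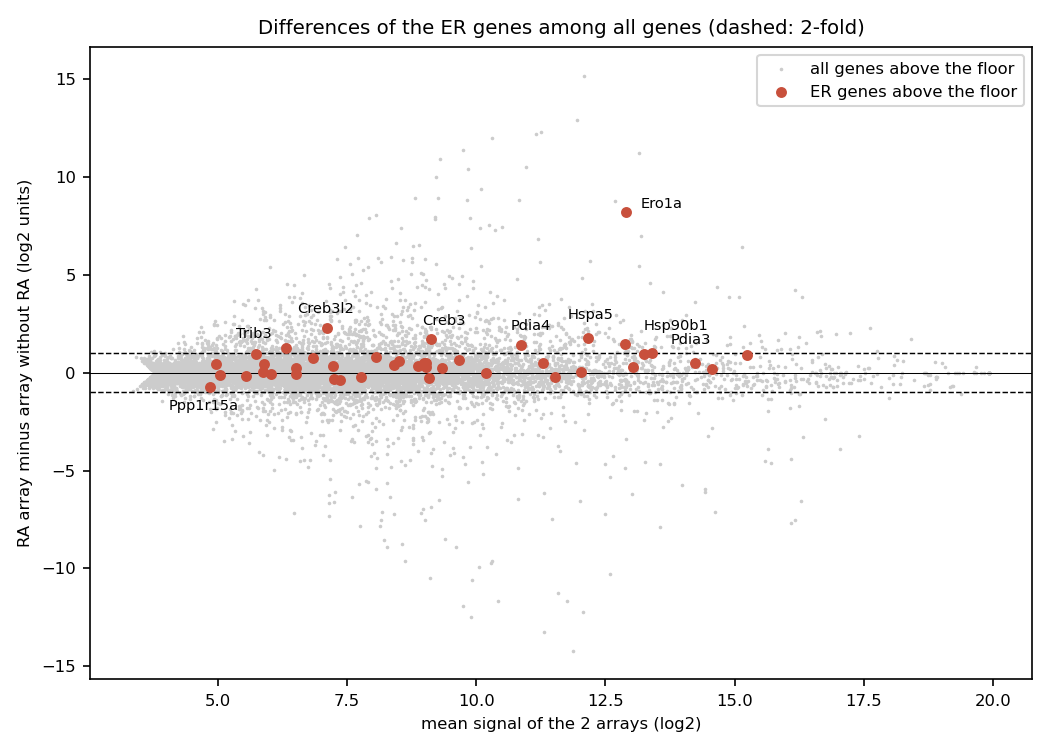
Difference between the arrays (RA minus without RA, log2 units) against the mean signal of the 2 arrays (log2) for all 14274 genes above the floor (grey) and the 42 members above it (red), with dashed lines at 2-fold. Members at least 2-fold higher are labelled, with Ppp1r15a as the lowest, and no member lies under the lower dashed line.

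The sequence just before the start of many ER chaperone genes carries the ER stress response element (ERSE), whose CCAAT end is bound by the factor NF-Y and whose CCACG end by ATF6. The 250 bases before the annotated start were searched on both strands for exact matches in the RefSeq promoter table of assembly GRCr8, which holds 37 of the member genes. The ERSE was taken as CCAAT, 9 bases of any kind, and CCACG. It was present in 9 of the 37 member genes (24.3%) and in 22 of all 33469 promoters of the table (0.0657%). A match is a run of letters and does not show that a factor binds there, and near matches were not counted. The matches are printed because these genes share the element and yet differed from each other on the arrays. They are ordered by the difference of the gene, 5′ to 3′ on the gene's strand, with the element in capitals; a match that begins with CGTGG is the element read on the opposite strand.
Hspa5 (GRCr8 chr3:38452953-38453011, + strand): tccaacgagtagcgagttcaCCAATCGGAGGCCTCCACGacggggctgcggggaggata
Hsp90b1, upstream match (GRCr8 chr7:23012431-23012489, - strand): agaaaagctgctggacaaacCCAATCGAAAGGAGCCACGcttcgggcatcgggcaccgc
Hsp90b1, downstream match (GRCr8 chr7:23012327-23012385, - strand): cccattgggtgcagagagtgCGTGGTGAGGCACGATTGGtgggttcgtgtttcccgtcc
Calr (GRCr8 chr19:40213117-40213173, + strand): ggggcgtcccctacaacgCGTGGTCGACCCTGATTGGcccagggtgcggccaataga
Canx (GRCr8 chr10:35158049-35158107, - strand): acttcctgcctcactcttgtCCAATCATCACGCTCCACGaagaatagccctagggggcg
Ero1b (GRCr8 chr17:92941438-92941496, + strand): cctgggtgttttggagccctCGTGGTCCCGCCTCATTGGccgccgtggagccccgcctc
Xbp1 (GRCr8 chr14:84604538-84604596, + strand): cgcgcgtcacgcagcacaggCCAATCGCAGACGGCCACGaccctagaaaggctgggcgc
Derl3 (GRCr8 chr20:12766581-12766639, - strand): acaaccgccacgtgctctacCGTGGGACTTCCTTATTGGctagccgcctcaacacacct
Creld2 (GRCr8 chr7:121789219-121789277, + strand): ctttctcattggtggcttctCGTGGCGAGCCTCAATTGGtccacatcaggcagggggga
Dnajc3 (GRCr8 chr15:102432514-102432572, + strand): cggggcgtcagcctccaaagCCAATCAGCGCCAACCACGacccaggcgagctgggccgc

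The 9 genes with the element did not share a difference. It was 1.78 for Hspa5 and 1.47 for Hsp90b1, which alone of the 9 has a pair of matches, and 0.90 for Calr. Canx, Ero1b and Xbp1 followed at 0.50, 0.43 and 0.31. Creld2 (-0.08) and Dnajc3 (-0.34) were lower or close to 0, and Derl3 was under the floor. Of the 8 above the floor, 2 were past 2-fold and 6 had a difference over 0, with a median of 0.46. Among the 27 members above the floor that have a promoter in the table and no exact ERSE, 4 were past 2-fold upward and 19 had a difference over 0, with a median of 0.27. Of all genes, 7.88% were past 2-fold upward and 46.4% had a difference over 0. Neither set holds the 8 members without a promoter in the table. These are Manf, Ero1a (8.22), Pdia3 (1.03), Pdia6 (0.98), Sec61a1 (0.51), Atf6 (0.51), Derl1 (0.35) and Ern1 (0.02). The sets are small, and the difference between them was not tested.

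Other stress elements were found in few members. ERSE-II, a shorter form with ATTGG, 1 base of any kind and CCACG, was found in Herpud1 and, with a pair of matches, in Hyou1, and in 14 of all 33469 promoters (0.0418%). The core TGACGTG of the unfolded protein response element, an XBP1 and ATF6 site, was found in Hspa5 and Hyou1, where it overlaps the upstream ERSE-II, and in 1.54% of all promoters. The core TGATGNAA of the C/EBP-ATF response element is the site of ATF4 with its partners. It was found in 3 of the 37 member genes (8.11%), Chac1, Trib3 and Herpud1, and in 3.4% of all promoters. The differences were 1.26 for Trib3, 0.98 for Chac1 and 0.44 for Herpud1. Trib3 and Chac1 are known targets of ATF4, and whether it acts at these sites was not tested. All 3 matches are shown with the core in capitals as it reads on the gene's strand.
Trib3 (GRCr8 chr3:161275534-161275574, - strand): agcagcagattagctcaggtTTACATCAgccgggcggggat
Chac1 (GRCr8 chr3:126795944-126795991, + strand): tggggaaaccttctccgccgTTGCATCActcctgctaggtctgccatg
Herpud1 (GRCr8 chr19:10614864-10614911, - strand): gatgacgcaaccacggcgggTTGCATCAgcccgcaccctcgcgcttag

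**Figure D3:**
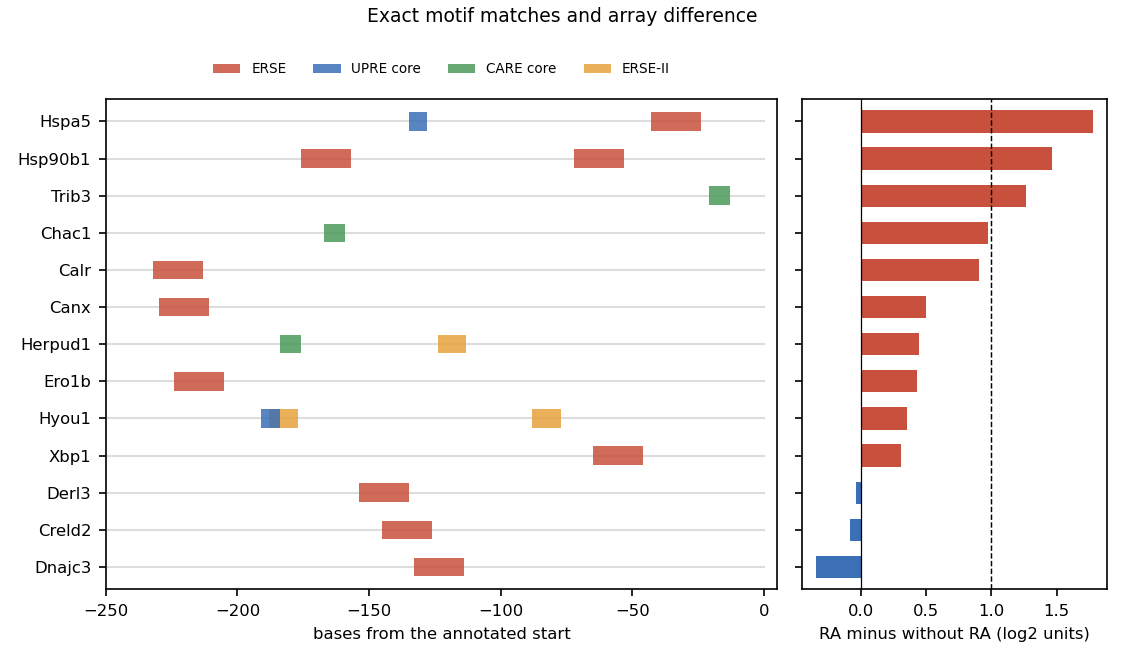
Left, exact matches to 4 stress elements (coloured blocks) by distance in bases from the annotated start in the 13 member genes that hold any. Right, the difference of each gene (RA minus without RA, log2 units; dashed line at 2-fold), from 1.78 for Hspa5 to -0.34 for Dnajc3.

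The major lumenal chaperones were higher with RA, and none of their cochaperones differed by 2-fold. Hspa5, which encodes BiP, the HSP70 of the ER that also binds the stress sensors, had a signal of 11.28 without RA and 13.06 with RA, a 3.44-fold difference. Hsp90b1 (GRP94), the HSP90 of the ER, which folds integrins and Toll-like receptors, went from 12.14 to 13.60, or 2.76-fold. The other 7 lumenal genes differed by -0.34 to 0.35.

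The partners of BiP stayed close to their level without RA. The 3 J-domain proteins that bring clients to BiP had differences of 0.23 for Dnajb11 (9.23 and 9.46), -0.12 for Dnajb9 (5.10 and 4.98) and -0.34 for Dnajc3 (7.42 and 7.08), and Dnajb9 is a classical target of XBP1. The nucleotide exchange factors of BiP were Hyou1 (GRP170), at 7.06 and 7.41, and Sil1, at 5.63 and 5.47. Sdf2l1, a partner of the J-domain proteins, was lower by 0.05 units from 6.06, and the ER stress gene Creld2 was at 6.56 and 6.48. The median of the 9 was -0.05, and it turned to 0.02 under the scaling that moved it most. A second Hyou1 probe set, at 3.03 and 3.01, was under the floor and was not used.

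The lectin chaperones, which hold newly made glycoproteins until they are folded, were both higher by less than 2-fold. Calr (calreticulin, the soluble form) went from 14.80 to 15.70, and Canx (calnexin, the membrane form) from 13.98 to 14.48. Their differences depended on the scaling more than those of most members, and ran from 0.90 to 1.65 for Calr and from 0.50 to 1.20 for Canx over the 5 scalings.

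The genes of disulfide formation held the largest difference. Ero1a encodes the oxidase that passes electrons from protein disulfide isomerase to oxygen and so drives disulfide formation. Its signal was 8.79 without RA and 17.00 with RA, a difference of 8.22 and a 298-fold ratio on the deposited scale. This was the 18th highest difference of the 14274 genes above the floor, and it ran from 8.22 to 8.76 over the scalings. The RA value lies above the scanner's ceiling, so that the ratio belongs to the stretched scale of the table. Its paralogue Ero1b, the oxidase of secretory cells such as the pancreatic beta cell, was at 4.76 and 5.18.

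The disulfide isomerases, which form and reshuffle disulfide bonds, all had a difference over 0. Pdia4 (ERp72) went from 10.15 to 11.58, or 2.70-fold. Pdia3 (ERp57), the partner of calnexin and calreticulin, went from 12.88 to 13.91, or 2.04-fold, and Pdia6 from 12.76 to 13.73. Txndc5 (ERp46) was at 8.74 and 9.24. P4hb, the founding protein disulfide isomerase and the substrate of ERO1, was at 14.47 and 14.65, the smallest difference of these 7 genes at 0.18, though 0.88 under the scaling that moved it most. The median of the 7 was 0.98, and 3 were at least 2-fold higher.

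Of the stress sensors, none (0 of 3) differed by 2-fold. Eif2ak3 (PERK), the kinase that phosphorylates the initiation factor eIF2-alpha, went from 7.66 to 8.47. Atf6 was at 8.77 and 9.28. Ern1 (IRE1-alpha), the nuclease that splices the Xbp1 message, was at 5.87 and 5.89. The activity of the 3 sensors lies in cleavage, splicing and phosphorylation, which a signal per gene does not measure.

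Of the 5 transcription factors above the floor, 2 were past 2-fold, both higher. Creb3l2, a membrane-bound factor that raises secretory capacity in mouse cartilage, went from 5.95 to 8.26, or 4.97-fold. Creb3 (Luman), which is cut in the Golgi as ATF6 is, went from 8.26 to 9.98, or 3.29-fold. Their differences ran from 2.30 to 2.40 and from 1.66 to 1.88 units over the scalings. Of their relatives, Creb3l3 was at 4.47 and 4.41, and Creb3l1 and Creb3l4 (3.37 and 3.29) were under the floor; Creb3l3 and Creb3l4 were named after their values were seen. Xbp1, the target of IRE1, was at 12.88 and 13.19, and its difference ran from 0.31 to 0.87 over the scalings. Atf4, the main factor downstream of eIF2-alpha phosphorylation, was slightly lower with RA, at 9.20 and 8.96. Ddit3 (CHOP), a target of ATF4 linked to cell death in prolonged stress, went from 6.47 to 7.22. The spliced and unspliced forms of Xbp1 are not told apart, and Atf4 is controlled largely at translation.

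The regulators induced through ATF4 and CHOP went both ways. Trib3, a pseudokinase that restrains ATF4 and CHOP, went from 5.69 to 6.96, or 2.40-fold. Chac1, which degrades glutathione, went from 5.26 to 6.23. Ppp1r15a (GADD34), the phosphatase subunit that reverses eIF2-alpha phosphorylation, went from 5.22 to 4.49, or 1.66-fold lower, the only member at least 1.5-fold lower.

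ER-associated degradation, which pulls misfolded proteins back to the cytosol for the proteasome, differed little. Of 7 members above the floor, 0 differed by 1.5-fold, and their median was 0.35. The mannosidase-like Edem2 and Edem1, which mark glycoproteins for disposal, were at 8.22 and 8.80 and at 8.22 and 8.61. The ubiquitin ligase Syvn1 (HRD1) was at 6.40 and 6.65, its partner Sel1l at 8.90 and 9.17, and Herpud1, which organizes the ligase complex and is a classical stress target, at 5.67 and 6.11. Of the derlins, membrane proteins of the same complex, Derl1 was at 8.70 and 9.05 and Derl2 at 7.87 and 7.66.

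The entry and early processing genes went both ways, and 0 of the 6 were past 2-fold. Sec61a1, the pore of the channel, was at 11.05 and 11.55, and its small subunit Sec61b at 12.01 and 12.06. The translocon-associated proteins had opposite signs, with Ssr1 at 9.35 and 9.99, or 1.56-fold, and Ssr3 at 7.56 and 7.18. The signal peptidase subunit Spcs2 was at 11.65 and 11.42, and Ostc, a subunit of oligosaccharyltransferase, at 10.19 and 10.20. The median of the 6 was 0.03, and 0.39 under the scaling that moved it most.

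Other genes of the same pathways, listed by function, gave different counts. The list of KDEL receptors, ATF6 proteases and ER exit genes also held genes of the COPI coat and others. Of its 35 genes above the floor, 10 were higher by 2-fold or more (28.6%, against 7.88% of all genes) and 1 lower, and the median was 0.48. The ATF6 protease genes Mbtps1 (9.51 and 9.49) and Mbtps2 (7.97 and 8.24), named after their values were seen, were not past 2-fold. KDEL receptors return BiP, GRP94, the isomerases and calreticulin from the Golgi. Kdelr3 had the largest difference of the list, from 7.27 to 10.61, and Kdelr2 and Kdelr1, named after their values were seen, were at 14.15 and 15.55 and at 11.23 and 11.52. Sec31a, of the outer COPII coat that buds vesicles from the ER, went from 10.27 to 12.28, and Arfgap3, a regulator of the COPI coat, from 7.08 to 9.15. The cargo receptor Tmed3 was the 1 lower gene, from 12.07 to 9.98.

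The list of other integrated stress response genes held ATF4 targets and amino acid genes, and also kinases of eIF2-alpha other than PERK. Of its 36 genes above the floor, 13 were higher by 2-fold or more (36.1%, against 7.88% of all genes) and 1 lower, and the median was 0.61. The kinase genes Eif2ak1 (13.46 and 14.85) and Eif2ak2 (8.82 and 10.33), named after their values were seen, were among the 13. Stc2 (stanniocalcin 2, a secreted glycoprotein) went from 6.48 to 10.58, the asparagine synthetase gene Asns from 11.01 to 13.22 and the mitochondrial folate enzyme gene Mthfd2 from 5.73 to 7.94. Psat1 and Shmt2, of serine and glycine synthesis and named after their values were seen, went from 11.47 to 13.08 and from 10.19 to 11.60. Of the same synthesis and also named after their values were seen, Psph was at 5.86 and 6.88, and Phgdh was at 5.77 on both arrays. Slc7a11, the cystine transporter and also a known ATF4 target, was lower, at 7.46 and 5.03. Of the 36, 27 had a difference over 0, against 46.4% of all genes. The difference of Atf4, which is controlled largely at translation, was -0.24, and the part of ATF4 in these differences was not tested.

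Of the 34 folding enzymes outside the list and above the floor, 2 were past 2-fold, both higher (5.88%, against 7.88% of all genes). The median was 0.23. The 2 were P4ha1, the catalytic subunit of collagen prolyl hydroxylase, from 8.69 to 12.40, and Plod2, a collagen lysyl hydroxylase, from 5.20 to 8.41. The cyclophilin gene Ppic (7.41 and 8.21) and the collagen chaperone gene Serpinh1 (7.64 and 6.86) came next in size. P4ha2 (8.58 and 9.02), a paralogue of P4ha1, and Plod1 (9.64 and 10.18), a paralogue of Plod2, were not past 2-fold. Both were named after their values were seen. P4ha1 works in a complex with P4hb, whose difference was 0.18.

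Of the other translocon and N-glycosylation genes, 34 in number, 3 were past 2-fold, all higher (8.82%, against 7.88% of all genes). The median was 0.18. Over the scalings the count ran from 3 to 8 and the median from 0.18 to 0.39. Stt3a and Ddost, the catalytic and a structural subunit of oligosaccharyltransferase, went from 14.20 to 15.64 and from 12.39 to 13.65, and the signal recognition particle receptor gene Srpra from 10.92 to 12.08. Sec11c, of the signal peptidase, was at 7.78 and 6.80. Among 26 other genes of ER-associated degradation, 1 was past 2-fold upward and 1 downward (3.85% each, against 7.88% and 5.63% of all genes). The median was -0.14. The 1 higher was the lectin gene Erlec1, from 8.69 to 9.80. The 1 lower was Ufd1, a cofactor of the extracting ATPase p97, from 11.03 to 9.74. The next in size were Ubxn4 (9.21 and 8.31) and Get4 (8.74 and 8.00).

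Chaperones of the cytosol and of mitochondria were measured on the same arrays. Of 26 cytosolic heat shock genes, 5 (19.2%) were lower by 2-fold or more, against 5.63% of all genes, and 0 were higher. Over the scalings, 4 to 5 were lower and 0 to 1 higher. Their median was -0.41, between -0.45 and -0.21 over the scalings. Hspa8, named after its values were seen, was at the table's highest value, 19.93, on both arrays, so that a difference could not be read. The small heat shock genes Hspb1, Hspb8 and Cryab went from 10.54 to 8.03, from 10.25 to 7.89 and from 6.37 to 4.51, and the inducible Hspa1a from 6.90 to 4.93. Of 12 mitochondrial chaperones and proteases, 1 was higher and 1 lower by 2-fold or more (8.33% each, against 7.88% and 5.63% of all genes). These were the protease gene Lonp1 (10.09 to 11.39) and Clpx (10.69 to 9.58), the unfoldase of another protease. The median of the 12 was -0.006 and turned to 0.46 after lowess. The difference between these lists and the members was not tested.

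**Figure D4:**
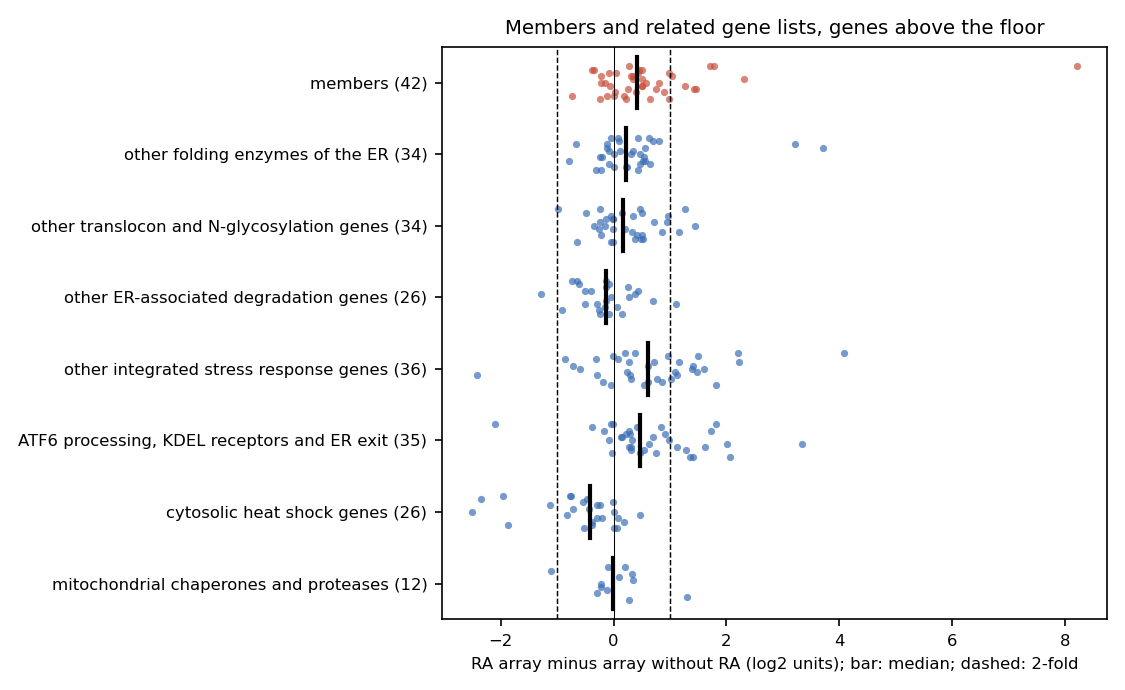
Difference (RA minus without RA, log2 units) of each gene above the floor in the members (red) and in 7 related lists (blue), with the number of genes in brackets, the median as a black bar and dashed lines at 2-fold. Medians run from -0.41 for cytosolic heat shock genes to 0.61 for the integrated stress response, with the members at 0.41.

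The state of the culture differed between the arrays as well. Of 11 measured keratinocyte markers, all above the floor, 8 (72.7%) were lower with RA by 2-fold or more, against 5.63% of all genes. Higher by 2-fold or more were 0 of them, against 7.88% of all genes. Krt1, of the differentiating layers, went from 18.98 to 4.78 and Krt14, of the basal layer, from the table's highest value, 19.93, to 12.25, while Krt15, also basal and named after its values were seen, was at 19.60 and 19.65. The mean log2 signal of these markers was 16.07 without RA and 10.66 with RA. In cultures measured whole, fewer cells of a type and less RNA per cell cannot be told apart. Plasma and acinar cells are rich in ER, and of 7 measured markers of such cells Mzb1, Prss1, Cela1 and Cpa1 were under the floor on both arrays. The other 3 were Sdc1, a proteoglycan that keratinocytes also carry, at 14.37 and 13.56, and the B cell receptor genes Cd79a, at 4.46 and 4.35, and Cd79b, at 3.85 and 3.82. The list means were 5.07 and 4.94. Of 8 immune markers, 3 were above the floor, and 1 of these, Cd68, was higher with RA by 2-fold or more (33.3%, against 7.88% of all genes). At 1.5-fold all 3 were higher, against 13.9% of all genes. Cd68, a lysosomal protein, went from 5.41 to 11.31, Cd74 from 4.13 to 4.98 and Cd14 from 6.40 to 7.24. Ptprc, Itgam, Csf1r, Cd3e and Cd207 were under the floor. The immune list means were 4.08 and 4.99. Fibroblast markers had means of 4.11 and 3.86, melanocyte markers 3.84 and 3.75, and endothelial markers 4.26 and 3.98. Above the floor were 4 of 9 fibroblast, 2 of 7 melanocyte and 2 of 6 endothelial markers. The largest difference of each list was a lower level with RA, for Col3a1 (7.03 and 4.90), Mitf (6.08 and 5.14) and Tek (7.72 and 6.38). Those above the floor with a difference over 0 were Vim (5.59 and 5.94) and Pmel (4.48 and 4.56). The part of the culture's makeup in the ER gene differences was not tested.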

How the data were processed

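Biotin-labelled whole-transcript cDNA of 2 samples was hybridized to GeneChip arrays, per the labels' protocols. Per the submitters' processing notes, the authors used RMA (background correction, normalization and probe summary) and the Transcriptome Analysis Console, with no versions named. The deposited table gives log2 signals of 70580 probe sets on each array, and the values themselves show the log base. Values above 16 (963 without RA, 670 with RA) show a stretch that the sources used here do not explain. Genes were named from the platform annotation (23446 probe sets with 1 symbol). Differences, medians and counts were computed with Python 3.11.15, numpy 2.4.6, pandas 2.3.3 and statsmodels 0.14.6, and the counting was tested on simulated data. With 1 array per group no test was run, and the number of arrays limits the precision. Alternatives were median centring, lowess over all probe sets (span 0.2), quantile normalization, averaging the probe sets of a gene, other floors and other folds. Lowess over 1-symbol probe sets and leaving out Ero1a were chosen after seeing the data. The members and lists were chosen with earlier results of these data known. All measured members are named, and in each other list at most the 4 genes above the floor that differed most, besides markers under the floor and genes stated as named after their values were seen.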

Additional observations from a re-analysis of the deposited data

How the results depend on the processing

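No paired analysis was possible because RA and control have a single array each, which also leaves no replicate to omit. The count of members at least 2-fold higher, 8 as reported, was 10 when the arrays were centred on their medians and 7 without Ero1a. After lowess over all probe sets or a further quantile normalization it was 12, and after lowess over probe sets with 1 gene 11. The share of all genes at least 2-fold higher, 7.88% as reported, moved as well. It was 8.3% after centring, 10.2% after lowess over all probe sets, 8.38% after quantile normalization and 8.27% after lowess over probe sets with 1 gene. The member count was 14 at 1.5-fold (33.3%, against 13.9% of all genes) and 2 at 4-fold (4.76%, against 3.05%). The count of lower members was 1 at 1.5-fold and 0 under the other alternatives run. The median of the members ran from 0.37 with no floor to 0.59 after lowess over all probe sets, and the mean in its place was 0.66. No member at least 2-fold higher changed its sign under a scaling. Bright members moved most with the scaling, and signals near the floor may be background.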
